A study of Mus musculus with 4 samples.

Results

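Open chromatin inside very long genes was described in endothelial cells of the mouse lung. Peaks of 4 ATAC-seq peak lists on chromosomes 1 to 19 were merged wherever they overlapped by 1 bp or more, and a merged region was a member when its centre lay inside a protein-coding gene of 500 kb or more on GRCm38.p6, the RefSeq version of mm10. Of 110590 merged regions, 4559 were members, 59839 lay inside shorter genes only and 46192 lay outside protein-coding genes. The members lay in 216 genes with a median length of 735 kb and a range of 501.8 to 2271 kb. These genes cover 180.1 Mb, which is 18.3% of the length inside protein-coding genes. The rule for members used gene length and no measured value, but it was chosen with earlier results of these data known.

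Just inside the limit, Edil3 (502 kb) held 10 regions, Dock1 (503 kb) 42 and Samd12 (503 kb) 24. Just outside it, Dnm3 (496 kb) held 41 regions, Lrrc7 (495 kb) 9 and Cacna1e (494 kb) 14. The values on the 2 sides of the limit overlapped.

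The libraries came from endothelial cells that were sorted from the lungs of mice by flow cytometry, 2 labelled Dnmt3a knockout (KO) and 2 labelled wild type (WT). ATAC-seq uses a transposase that inserts sequencing adapters where DNA is accessible. The comparison asked how loss of Dnmt3a changes the open regions of the endothelium. The labels name the genotype, the tissue and the cell type, and do not name the allele, any Cre driver, the strain, the age or the sex of the mice, nor whether separate mice gave the libraries of one genotype. The p-values on library values therefore measure only the spread between these libraries, which may be technical. Each list gives positions and widths with no read count, so depth is unknown and a region missing from a list was not called there, which does not show closed chromatin. In material from many cells, a site open in fewer cells and a site less open in every cell cannot be told apart.

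DNMT3A is a de novo DNA methyltransferase that adds methyl groups mainly to cytosines followed by guanine (CpG sites). Very long genes owe their length to large introns. Many of them encode adhesion molecules, ion channels and receptors of neurons, others encode transcription regulators and signalling proteins that are used in many tissues, and several overlap common fragile sites, where chromosomes break under replication stress. Enhancers often lie in such introns, while the start of a gene is usually open when the gene is in use.

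The lists held 85183 to 101576 peaks, and the shortest was that of KO replicate 1. Peaks lay within 1000 bp of an end of all 12 endothelial marker genes in each list, among them Cdh5 and Pecam1, at 1 or 2 of 7 leukocyte genes, at 4 or 5 of 7 epithelial genes and at 5 or 6 of 7 fibroblast and mural genes. KO replicate 2 had a peak at 0 of 5 single-copy genes of the Y chromosome, where the other libraries had peaks at 3 or 4. The part of these differences in the results below was not tested.

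Start sites gave the most direct view of sequence. The RefSeq table of promoters held a start for 169 of the 216 genes and none for 47. A gene can have several starts in the table. At 6 of the 169 genes, Dab1, Dlgap1, Kcnd2, Nkain2, Syt1 and Zfp804b, a peak within 1000 bp of a start was called in both WT lists and in neither KO list. These genes were picked out after their values were seen. Their 250 bases before the start with the peak are printed first. Those of St6galnac3 and Ptprg, whose starts had a peak in all 4 lists, and of Ctnna2, whose start had none, follow for comparison. The sequences are RefSeq's on GRCm38.p6, written 5′ to 3′ on the strand of the gene, and capitals mark each CG, which reads the same on both strands.

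Dab1, chr4:104367288-104367537, + strand: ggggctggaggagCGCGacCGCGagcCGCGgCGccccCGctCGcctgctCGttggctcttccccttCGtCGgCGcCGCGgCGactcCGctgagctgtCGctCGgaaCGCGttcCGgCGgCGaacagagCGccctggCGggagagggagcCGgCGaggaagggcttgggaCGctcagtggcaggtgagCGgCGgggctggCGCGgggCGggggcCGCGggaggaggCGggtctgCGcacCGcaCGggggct
Dlgap1, chr17:69968823-69969072, + strand: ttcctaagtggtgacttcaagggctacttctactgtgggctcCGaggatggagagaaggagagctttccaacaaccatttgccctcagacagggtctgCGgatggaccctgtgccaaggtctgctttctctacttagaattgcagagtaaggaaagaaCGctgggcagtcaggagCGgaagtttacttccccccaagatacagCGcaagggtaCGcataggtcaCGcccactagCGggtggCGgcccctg
Kcnd2, chr6:21215096-21215345, + strand: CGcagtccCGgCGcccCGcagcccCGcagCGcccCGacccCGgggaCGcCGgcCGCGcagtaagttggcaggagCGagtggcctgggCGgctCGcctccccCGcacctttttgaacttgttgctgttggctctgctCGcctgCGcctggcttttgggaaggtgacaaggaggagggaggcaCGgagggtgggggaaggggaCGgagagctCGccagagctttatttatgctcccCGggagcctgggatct
Nkain2, chr10:32889916-32890165, - strand: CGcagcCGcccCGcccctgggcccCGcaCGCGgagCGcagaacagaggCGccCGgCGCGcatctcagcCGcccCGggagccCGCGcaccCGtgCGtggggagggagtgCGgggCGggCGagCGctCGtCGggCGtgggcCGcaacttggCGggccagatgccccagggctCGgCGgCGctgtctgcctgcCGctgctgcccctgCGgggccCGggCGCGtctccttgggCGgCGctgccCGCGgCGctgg
Syt1, chr10:109010976-109011225, - strand: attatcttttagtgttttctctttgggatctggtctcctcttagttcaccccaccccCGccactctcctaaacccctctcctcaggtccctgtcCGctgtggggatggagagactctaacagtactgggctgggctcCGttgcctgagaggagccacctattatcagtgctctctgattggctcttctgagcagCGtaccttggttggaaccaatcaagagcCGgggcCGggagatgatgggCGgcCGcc
Zfp804b, chr5:7344379-7344628, - strand: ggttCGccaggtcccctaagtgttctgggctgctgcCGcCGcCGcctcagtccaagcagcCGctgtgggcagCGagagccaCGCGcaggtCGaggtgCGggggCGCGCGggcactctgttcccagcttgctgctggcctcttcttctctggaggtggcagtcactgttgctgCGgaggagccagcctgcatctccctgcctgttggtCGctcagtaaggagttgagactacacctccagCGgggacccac
St6galnac3, chr3:153725134-153725383, - strand: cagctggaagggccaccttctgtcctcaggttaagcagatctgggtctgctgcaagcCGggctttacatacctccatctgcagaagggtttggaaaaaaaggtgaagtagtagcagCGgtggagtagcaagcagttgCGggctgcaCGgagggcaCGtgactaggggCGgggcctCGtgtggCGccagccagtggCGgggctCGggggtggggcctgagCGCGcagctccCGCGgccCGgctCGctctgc
Ptprg, chr14:11553303-11553552, + strand: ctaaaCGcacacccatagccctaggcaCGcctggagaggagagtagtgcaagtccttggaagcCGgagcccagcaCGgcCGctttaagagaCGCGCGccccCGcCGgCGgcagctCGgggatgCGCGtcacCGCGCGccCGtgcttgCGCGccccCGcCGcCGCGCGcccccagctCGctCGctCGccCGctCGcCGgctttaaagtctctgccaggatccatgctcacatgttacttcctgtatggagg
Ctnna2, chr6:77979668-77979917, - strand: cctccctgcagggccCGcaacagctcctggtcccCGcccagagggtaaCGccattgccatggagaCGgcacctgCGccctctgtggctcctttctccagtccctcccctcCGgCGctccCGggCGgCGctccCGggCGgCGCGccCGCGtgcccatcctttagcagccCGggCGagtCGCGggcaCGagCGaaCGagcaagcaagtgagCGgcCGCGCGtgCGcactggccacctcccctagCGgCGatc

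The 6 starts called in WT alone differed widely in CpG content. Among the printed bases, Dab1 held 40 CG and Nkain2 39, while Kcnd2 held 22, Zfp804b 16, Dlgap1 9 and Syt1 8. St6galnac3 and Ptprg, open in all lists, held 16 and 31. Ctnna2, which encodes a catenin of neuronal junctions and had no peak near its start, held 30. CpG content among these few starts thus did not sort with the call pattern, but they do not stand for all starts. Ctnna2 was not typical. Its window of 300 bases held 38 CG, where long-gene starts without a peak had a median of 7. Adgrb3, which also had no peak near its start, held 14 in its 250 bases.

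Peaks at the 6 starts varied in width, where the median peak of the 2 WT lists measured 431 and 442 bp. Nkain2, which encodes a protein that interacts with the sodium pump, had peaks of 776 bp in WT replicate 1 and 442 bp in WT replicate 2. The other widths in the same 2 lists were 461 and 274 bp at Dab1, 513 and 320 bp at Kcnd2, 243 and 265 bp at Dlgap1, 321 and 248 bp at Syt1, and 305 and 377 bp at Zfp804b. Dab1 is an adaptor of reelin signalling, Kcnd2 a potassium channel, Dlgap1 a scaffold of synapses and Syt1 a calcium sensor of synaptic vesicles. The start peaks of the genes called in every list were wider. They measured 940, 800, 810 and 910 bp at St6galnac3 and 924, 817, 762 and 873 bp at Ptprg, in KO replicates 1 and 2 and WT replicates 1 and 2. The widths at Nkain2 lay below these in WT replicate 2 and between them in WT replicate 1.

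Over all 169 genes with a known start, a peak within 1000 bp was called at 95 and 105 in KO replicates 1 and 2 and at 114 and 110 in WT replicates 1 and 2. Both KO values lay below both WT values. As shares these were 59.2% ± 4.18 in KO and 66.3% ± 1.67 in WT (SD, n = 2 each), a difference of -7.10 percentage points with an exact permutation p of 0.33, the smallest that 2 against 2 libraries can give. Among 16288 shorter genes the shares were 65.7% ± 1.43 and 66.9% ± 0.2, a difference of -1.21 points. Without KO replicate 1 the difference at long genes was -4.14 points.

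**Figure D1:**
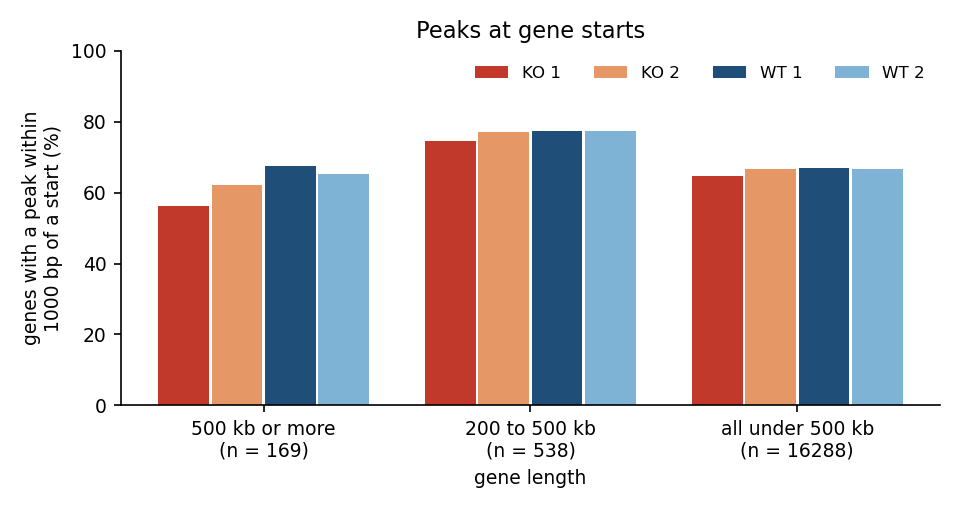
Share of genes with a peak within 1000 bp of a start, in percent, for each library and 3 classes of gene length. In genes of 500 kb or more the shares ran from 56.2% in KO replicate 1 to 67.5% in WT replicate 1, and in all genes under 500 kb from 64.7% to 67.0%.

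Calls at long-gene starts were more often incomplete. A start peak was called in 95 of the 169 genes by all 4 lists, in 54 by none and in 20 by 1 to 3 lists. These 20 are 11.8% of the genes, beside 3.9% of shorter genes and 5.02% of genes of 200 to 500 kb. In all 20 the peak was missing from KO replicate 1. The start pattern of WT alone was seen at 6 long genes and that of KO alone at 0, where over all genes it was 0.425% for WT and 0.0972% for KO.

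The CG count of the whole promoter window, 250 bases before to 50 after a start, followed the calls over all long-gene starts. The median was 20 at the 106 starts with a peak in 4 lists, 17 at the 32 starts with a peak in 1 to 3 lists and 7 at the 133 starts with none. In shorter genes the medians were 22, 10 and 3. At least 1 CG was found in 98.9% of long-gene windows and in 94.6% of all 32851 promoter windows of that length. At least 10 were found in 57.2% of long-gene windows, 57.9% of shorter-gene windows and 43.5% of all. Over all their starts, long genes had a median of 12 and shorter genes of 14. The incompletely called starts of long genes thus held more CG than those of shorter genes, a description that was not tested.

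Members were sparse. Long genes held 17.6 and 19.9 called regions per Mb in KO replicates 1 and 2 and 21.5 and 20.9 in WT replicates 1 and 2. Shorter genes held 55.9, 64.7, 64.9 and 62.8 in the same order. Each library thus had a density in long genes far below that in shorter genes, with a mean ratio of 0.322 ± 0.0126 (SD, n = 4). The exact sign-flip permutation p was 0.13, the smallest that 4 libraries can give.

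Members were also narrower and lay away from gene ends. Their median width was 434, 386, 404 and 404 bp in KO replicates 1 and 2 and WT replicates 1 and 2, against 487, 429, 454 and 464 bp in shorter genes. Only 3.4% ± 0.0526 of them lay within 1000 bp of a gene end, against 19.8% ± 0.935 in shorter genes (SD, n = 4, exact sign-flip p = 0.13 for each). With regions at gene ends left out, the difference in median width was -13.0 ± 4.83 bp in place of -51.5 ± 7.05 bp.

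Of the members called by KO replicates 1 and 2, 86.2 and 76.2% were called in all 4 lists, and of those called by WT replicates 1 and 2, 70.6 and 72.4%. In shorter genes the shares were 90.4, 78.2, 77.9 and 80.6%. The mean difference was -5.43 ± 2.84 percentage points (SD, n = 4, exact sign-flip p = 0.13), lower in long genes in 4 of 4 libraries. Away from gene ends it was -2.81 points, and in KO replicate 2 the difference was then 1.14 points in the other direction.

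Density was highest next to the start. Over the 169 genes with a known start, merged regions numbered 97.0 per Mb in the first 10 kb, 34.9 from 10 to 50 kb and 20.7 beyond 500 kb. In the first 10 kb the called regions per Mb were 70.4 and 83.4 in KO and 86.4 and 88.8 in WT, and beyond 500 kb 14.4 and 16.4 in KO and 17.2 and 17.1 in WT. In both windows the groups did not overlap. Regions called in KO alone numbered 0 in the first 100 kb of these genes, among 677 regions. They made up 0.899% of all members and 1.12% of all regions. The first 100 kb joins the windows in which this count was 0, so the 0 is a description and not a test. Regions called in WT alone numbered 27 in the same stretch, or 3.99%, beside 4.72% of all members and 3.05% of all regions.

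**Figure D2:**
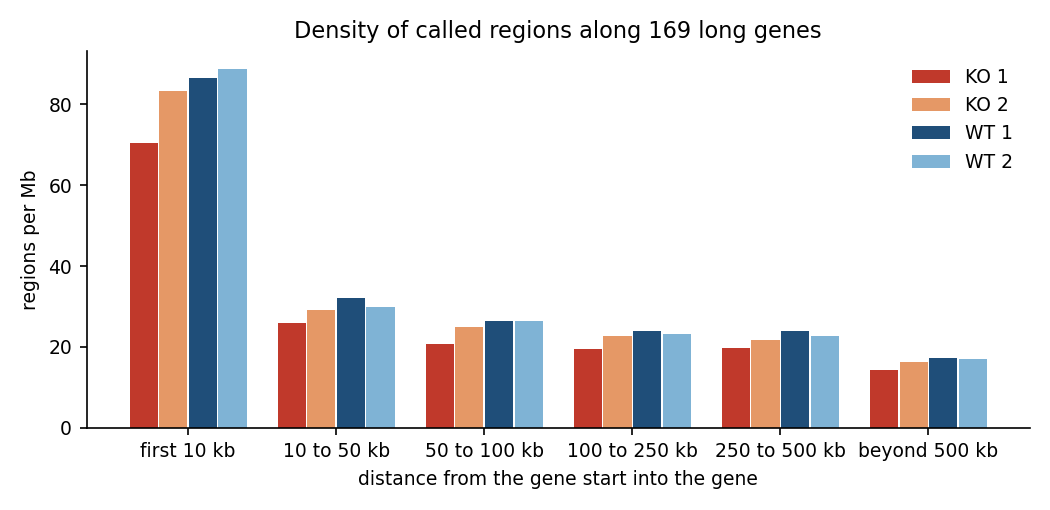
Called regions per Mb in each library against distance from the gene start, over the 169 long genes with a known start. The first 10 kb stood at 70.4 to 88.8 regions per Mb and every later window at 32.0 or below.

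When each of the 169 genes with a known start was cut into 10 parts of equal length, the first held 503 members and the last 467. The parts between held 298 to 406. The share called in all 4 lists ran from 53.5% to 65.0%, both in inner parts of the gene. Regions called in WT alone were found in every part, from 13 in the last to 24 near the middle. Those called in KO alone numbered 0 in the first 2 parts and 2 to 7 in each later part.

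Regions that separated the genotypes leaned to WT inside long genes. A region called in both KO lists and in neither WT list is named a KO-pattern region, and the reverse a WT-pattern region. Among the members 41 had the KO pattern and 215 the WT pattern. Over all 110590 regions the KO pattern made up 1.12% and the WT pattern 3.05%. In long genes the shares were 0.899% (Wilson 95% interval 0.664 to 1.22) and 4.72% (4.14 to 5.37). In shorter genes they were 1.21% (1.13 to 1.31) and 2.55% (2.42 to 2.67), from 727 and 1523 regions. The intervals cover counting error only.

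The WT pattern thus made up 84.0% (79.0 to 88.0) of the genotype-patterned regions in long genes and 67.7% (65.7 to 69.6) in shorter genes, a gap of 16.3 percentage points (11 to 20.7). The gap varied when a library was left out. The pattern of that genotype then rested on the single list that was left, so these values are not the same measure. Without KO replicate 2 the gap was 2.89 points, without WT replicate 2 it was 8.42, and without KO replicate 1 or WT replicate 1 it was 18.5 or 14.2. With all lists trimmed to equal length by keeping the widest peaks, the WT share was 62.1% in long and 45.4% in shorter genes, so that in shorter genes the balance turned to KO while the gap was 16.7 points.

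The share changed with length. For regions whose longest gene was under 50 kb, 50 to 100 kb, 100 to 200 kb and 200 to 500 kb, WT-pattern regions per KO-pattern region numbered 1.86, 2.13, 2.07 and 2.38. For genes of 500 kb to 1 Mb the ratio was 4.05, and for genes of 1 Mb or more it was 16.2, from 65 and 4 regions. Outside genes it was 3.44, from 1634 and 475 regions, which is above the value of every class under 500 kb. With regions within 1000 bp of a gene end left out, long genes held 40 and 211 regions, a ratio of 5.28.

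**Figure D3:**
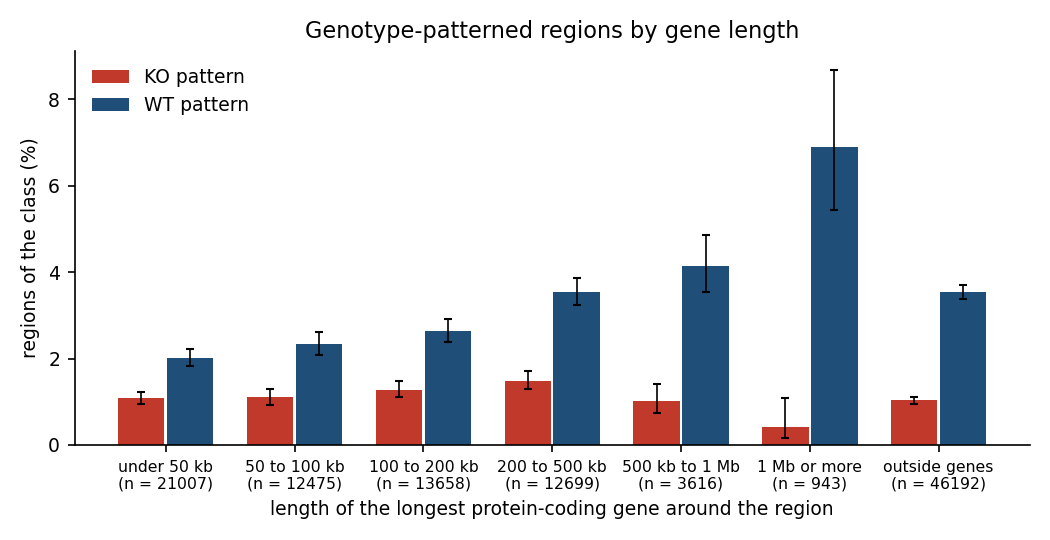
Share of KO-pattern and WT-pattern regions, in percent of the regions of each class, by the length of the longest protein-coding gene around the region. Bars show the share and error bars the 95% Wilson interval. The WT share was 2.01% in genes under 50 kb and 6.89% in genes of 1 Mb or more, while the KO share lay between 0.424% and 1.49%.

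The density of regions in a gene moved with these shares. In the 88 long genes with under 1 region per 100 kb, 1 region had the KO pattern and 22 the WT pattern, and in the 67 long genes with 1 to 4 per 100 kb the numbers were 7 and 86. In the 61 long genes with over 4 per 100 kb they were 33 and 107. The WT share of the patterned regions was 95.7% (79.0 to 99.2), 92.5% (85.3 to 96.3) and 76.4% (68.8 to 82.7) in these classes. In genes of 200 to 500 kb in the same density classes it was 81.8% (52.3 to 94.9), 88.2% (80.1 to 93.3) and 67.0% (62.9 to 70.9). In genes of 50 to 200 kb it was 66.7% (20.8 to 93.9), 85.4% (77.0 to 91.1) and 65.7% (62.5 to 68.8). At a given density the intervals of long genes and of genes of 200 to 500 kb overlapped. The share itself was highest in long genes in each density class. Overlap of intervals does not show that the shares are equal. Sparse genes made up more of the long genes (88 of 216) than of the genes of 200 to 500 kb (133 of 729). The density classes were added after seeing the data, and the part of density in the WT share of long genes was not tested.

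The library that missed a region also differed. Members called in every list but KO replicate 2 numbered 141, or 3.09%, against 1.47% in shorter genes. Those called in every list but KO replicate 1 numbered 350, or 7.68%, against 7.52%. Members missing only from WT replicate 1 or WT replicate 2 numbered 36 and 41, or 0.79% and 0.899%, against 0.692% and 0.973%. Regions called only in WT replicate 2 made up 4.10% of members and 2.26% of regions in shorter genes. Of the 4 libraries, KO replicate 2 thus showed the largest gap between long and shorter genes in regions that it alone missed.

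Genotype-patterned members were narrow. The median width percentile within a list was 12.2 for KO-pattern and 12.7 for WT-pattern members and 54.7 for members called in all 4 lists. The corresponding median widths were 249.5, 258 and 467 bp. Widths near the lower end of a list are those closest to the narrowest peak, which was 201 bp in every list.

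Each library's share of in-gene regions that lay inside long genes was 6.59% and 6.45% in KO replicates 1 and 2 and 6.90% and 6.96% in WT replicates 1 and 2. The groups did not overlap. The difference was -0.411 percentage points (6.52% ± 0.097 against 6.93% ± 0.0417, SD, n = 2 each, exact permutation p = 0.33). With lists of equal length it was -0.247 points and the groups overlapped (exact permutation p = 0.667). Regions called in long genes numbered 3170, 3583, 3868 and 3773 in the same order, a difference of -444 between genotypes. It was -235.5 without KO replicate 1, and with lists of equal length it was -102.5 and the groups overlapped (exact permutation p = 1).

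Peaks covered 1574.9 and 1601.1 kb of the long genes in KO and 1814 and 1780.6 kb in WT, again without overlap (exact permutation p = 0.33). The difference of -209.3 kb was -130.4 kb with lists of equal length. In shorter genes the KO lists called 44966 and 51982 regions and the WT lists 52203 and 50457, and those groups overlapped (exact permutation p = 0.667). Long-gene peaks made up 3.45 and 3.43% of the total length of the KO lists and 3.63 and 3.61% of that of the WT lists.

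**Figure D4:**
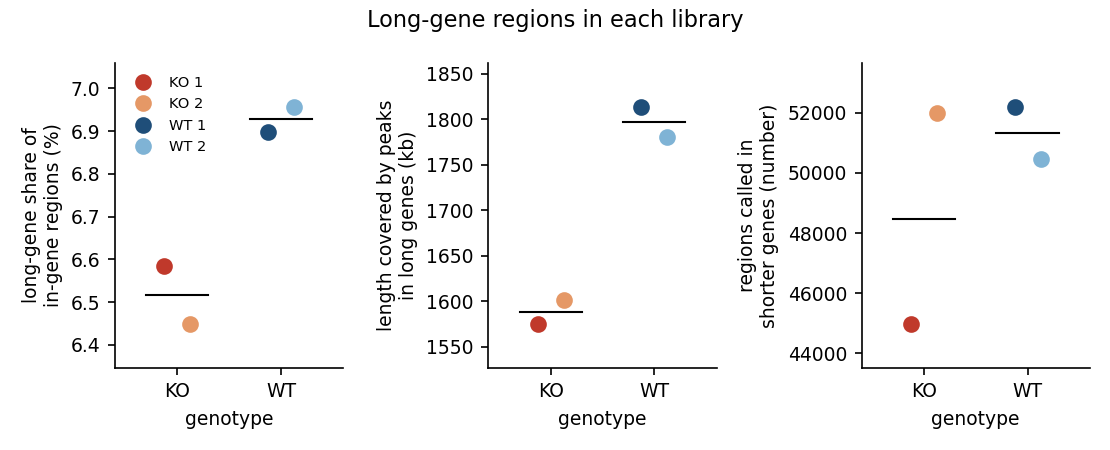
Values of the 4 libraries by genotype, with a line at each mean and axes that do not start at 0. The panels show the long-gene share of in-gene regions in percent, the length covered by peaks in long genes in kb and the number of regions called in shorter genes. KO and WT were apart in the first 2 panels, and in the last KO replicate 2 (51982) lay between the WT libraries.

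Gene by gene, 99 of the 216 long genes held more WT-pattern than KO-pattern regions, 13 held more KO-pattern regions, 7 held as many of each and 97 held neither. Over all 20665 genes, 6.2% held more WT-pattern and 2.63% more KO-pattern regions. A long gene holds more regions than a short one, so these shares are not on the same footing. Genes with an excess to WT per gene with an excess to KO numbered 7.62 among long genes, 3.36 among genes of 200 to 500 kb and 2.23 among all shorter genes. With lists of equal length the ratio among long genes was 1.75 (56 and 32 genes), and without KO replicate 1 it was 2.24 (94 and 42), while without each other library it was 15.3 to 16.2. At least 2 WT-pattern regions were found in 60 long genes, and at least 2 KO-pattern regions in 10. The overlapping models Gm37013, Gm38666 and Gm38667 hold the same 46 regions and each count among the 13 and the 10 genes.

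Members were unevenly spread over the genes. The median was 13 regions, 14 genes held 0, and the 20 genes with most held 34.0% of all members. Arhgap26, a GTPase-activating protein (chromosome 18, 38601617 to 39376285), led with 132 regions, of which 112, 118, 124 and 119 were called in KO replicates 1 and 2 and WT replicates 1 and 2. The receptor phosphatases Ptprm (chromosome 17, 66666848 to 67354491) and Ptprg (chromosome 14, 11553440 to 12242041) followed with 118 and 109. The phosphodiesterase Pde4d held 100, the transcription regulator Foxp1 97, Lrmda 85, the sialyltransferase St6galnac3 80, the scaffold proteins Frmd4a and Magi1 76 each, and the transcription regulator Zfhx3 74. Per 100 kb, Ptprm (17.2), Arhgap26 (17.0), Foxp1 (16.2), Ptprg (15.8) and St6galnac3 (15.2) were highest, where the median long gene held 1.57.

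WT-pattern regions were most numerous at St6galnac3, which held 7 and no KO-pattern region. The KO lists called 50 and 66 of its regions and the WT lists 68 and 66, so KO replicate 2 equalled a WT library. With lists of equal length St6galnac3 held 1 WT-pattern and 3 KO-pattern regions, and with only wide peaks 0 and 1, so its order turned. Ptprm held 6 and 0, with 58 and 87 called in KO and 96 and 88 in WT. Ptprg held 6 and 1, with 65 and 78 in KO and 86 and 88 in WT. Without KO replicate 1 Ptprm held 12 regions called in KO alone and 9 in WT alone. At Ptprm and Ptprg the groups did not overlap in all 4 libraries, and at Ptprm the KO libraries differed from each other by more than KO replicate 2 did from the WT libraries.

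Pard3b, a polarity protein, and Nrg1, a ligand of ERBB receptors, held 5 WT-pattern regions each. At Pard3b 36 and 43 regions were called in KO and 48 and 44 in WT. At Nrg1 the numbers were 24 and 26 in KO and 31 and 31 in WT. Both genes showed higher values in WT without overlap. Arhgap26, Lrmda and Auts2 held 4 each and no KO-pattern region. At Lrmda the order turned with lists of equal length (0 WT-pattern and 2 KO-pattern regions) and without KO replicate 1 (5 and 7).

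The KO pattern was most numerous at Foxp1 and Mecom, transcription regulators with 3 regions each. Foxp1 also held 3 WT-pattern regions and Mecom 2. At Mecom, the KO lists called 43 and 50 regions and the WT lists 44 and 43, and at Foxp1 the KO lists called 63 and 83 and the WT lists 79 and 71. The groups overlapped at both. Magi1, Plcb1 and Mast4 held 2 KO-pattern regions each, beside 3, 1 and 1 of the WT pattern. The order turned at Plcb1 with lists of equal length and without KO replicate 2 or either WT library, at Mast4 with only wide peaks and without KO replicate 2, and at Magi1 with lists of equal length and without KO replicate 1. Gm37013, Gm38666 and Gm38667, predicted gene models that overlap on chromosome 18, shared the same 46 regions, among them 3 of the KO pattern and 2 of the WT pattern. Of the 46 regions, 28 lay within 1000 bp of a gene end, where on average 3.4% of the members of a library did so. Most regions of these models thus do not stand for sites away from gene ends.

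The genotype-patterned members that stood highest by the lower of their 2 width percentiles show the size of these differences. In WT, Nkain2 held a region at chr10:32889720-32890495, over the start whose sequence is printed and 7.07 kb inside the gene span, with widths of 776 and 442 bp, and the nearest KO peak was 811449 bp away. Asic2, an acid-sensing ion channel, held a region at chr11:81941016-81941506 (491 and 403 bp), 27.1 kb into the gene and 54698 bp from the nearest KO peak. Nrg1 held a region at chr8:32089116-32089634 (364 and 519 bp). These WT-pattern regions lay 31132 bp or more from any KO peak. Others had a KO peak close by, such as that of Arhgap26 at chr18:39252894-39253387, 166 bp from the nearest KO peak.

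In KO, the first by this order was a region shared by the overlapping models on chromosome 18, at chr18:37767410-37768442 (widest peaks of 506 and 985 bp), 1253 bp from the nearest WT peak. A region of Zfhx3 at chr8:108956315-108956811 measured 489 and 457 bp, and the nearest WT peak was 3285 bp away. Ptprg held a region at chr14:11774684-11775544 (widest peaks of 621 and 383 bp), 1122 bp from a WT peak. Nrxn3, a presynaptic adhesion molecule, held a region at chr12:90132365-90132823 (363 and 459 bp), 1410 kb from the gene start and 84473 bp from the nearest WT peak. Of these 4 regions that of Nrxn3 alone lay far from any WT peak.

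The widest members were called in all 4 lists. Mdga2, an adhesion molecule, held the widest, at chr12:67220588-67223076, 0.717 kb from its start, with 1414 and 2189 bp in KO and 2398 and 2222 bp in WT. The region of the receptor phosphatase Ptprk at chr10:28074454-28076659 measured 2182 and 1887 bp in KO and 1892 and 1945 bp in WT. A region of Pard3, a polarity protein, lay 377.2 kb into the gene, at chr8:127439572-127441551, with 1936 and 1499 bp in KO and 1659 and 1900 bp in WT. KO and WT did not overlap at Mdga2 and overlapped at Ptprk and Pard3.

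Covered length per gene was compared by limma on log2(covered bp + 200), with each library centred on its median, over 3705 genes with 5 or more regions. Of these, 161 were long genes. The filter counted merged regions of any list, so a gene could pass through regions called in WT alone. A low KO value at such a gene was thus partly selected for. After Benjamini-Hochberg adjustment 0 genes passed 0.05 (0% of the genes tested), and the smallest adjusted p of a long gene was 0.281 in limma. Without adjustment, 46 long genes had p under 0.05 and a lower covered length in KO, and 2 had a higher one. The first is 28.6% of the long genes, where 4.99% of all genes tested were lower and 3.67% higher. The median log2 difference, KO minus WT, was -0.12 in long genes and 0.0033 in the other genes. Without KO replicate 2 the long-gene median was -0.08, and without KO replicate 1 it was -0.15. Without WT replicate 1 or WT replicate 2 it was -0.11 or -0.12.

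The medians ran with length. They were 0.03 in genes under 50 kb, 0.0076 at 50 to 100 kb, -0.0066 at 100 to 200 kb and -0.03 at 200 to 500 kb. After centring, both KO libraries lay below both WT libraries in 78 of the 161 long genes and above them in 10, where over all genes these shares were 19.6% and 20.6%. On the deposited lengths, without centring, they were below in 122 and above in 1 (40.7% and 6.67% over all genes).

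The lowest fitted value was that of Alk, a receptor tyrosine kinase (chromosome 17, 71868988 to 72604702), with 1255 and 442 bp covered in KO and 3222 and 2740 bp in WT. Its log2 difference was -1.62 (SE 0.373, limma adjusted p = 0.432). Sgcd, a sarcoglycan, had 677 and 1729 bp in KO and 2343 and 2468 bp in WT, a log2 difference of -0.91. Sorcs1, a sorting receptor, had 465 and 465 bp in KO and 1196 and 1000 bp in WT, a log2 difference of -0.87. In each of these the KO values lay below the WT values. Without KO replicate 2 the log2 differences were -1.01 at Alk and -1.46 at Sgcd, and without KO replicate 1 they were -2.24 and -0.37.

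Dab1 (chromosome 4, 103619500 to 104744844) had 1309 and 1355 bp in KO and 2758 and 2695 bp in WT, a log2 difference of -0.84 (SE 0.14, limma adjusted p = 0.355). Grid1, a glutamate receptor of the delta type, had 1553 and 1662 bp in KO and 3366 and 2994 bp in WT, a log2 difference of -0.81 (SE 0.13, limma adjusted p = 0.281). The libraries of a genotype lay close together at both genes. These genes hold few regions, 8 at Alk, 9 at Dab1 and 8 at Grid1, so a single peak moves the covered length strongly.

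Among the genes with the highest fitted values, the log2 differences were 0.21 at Astn2, 0.15 at Rad51b, 0.14 at Mecom and 0.13 at Arhgap15. Without KO replicate 1 that of Arhgap15 was -0.04 and that of Rad51b 0.05, and without KO replicate 2 that of Astn2 was 0.12. At Mecom the lengths were 22935 and 24368 bp in KO and 22194 and 23664 bp in WT, which overlapped before centring. None of these passed the adjustment.

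**Figure D5:**
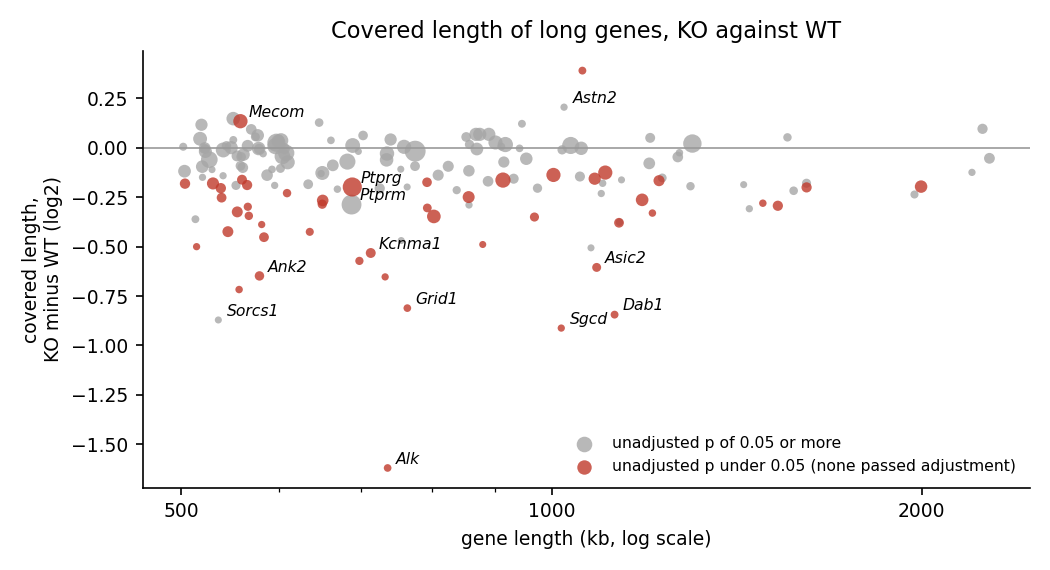
Log2 difference in covered length, KO minus WT, against gene length in kb on a log axis, for the 161 long genes tested. Points grow with the number of regions, and colour marks an unadjusted limma p under 0.05, which 48 genes had. Most points lie below 0, and the genes far below 0, such as Alk (-1.62), have few regions.

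Peak width was compared within shared regions. Of 73780 regions called in all 4 lists, 2732 were members, and limma on quantile-normalised log2 width called 0 (0% of the regions tested), with 0.489 as the smallest adjusted p. At an unadjusted p under 0.05, 213 members differed, where 5.36% of all regions did so. Of the 2732 members 145 were narrower in KO and 68 wider, beside 2275 (3.08%) and 1682 (2.28%) of all 73780 regions. Narrower regions thus outnumbered wider ones in both sets, and more so among members. The median log2 difference was 0.0013 in members and 0.0093 over all regions, or -0.064 and -0.047 without normalisation. A region of Sox5, a transcription regulator, at chr6:143878591-143879223, had the smallest p, with widths of 201 and 201 bp in KO and 591 and 628 bp in WT (log2 difference -1.54, SE 0.115, limma adjusted p = 0.489). A region of Pde4d at chr13:109278478-109279681 was wider in KO, with 1105 and 863 bp against 521 and 492 bp (log2 difference 0.99, SE 0.111, limma adjusted p = 0.526). Magi1 held a region at chr6:93727486-93728071 of 572 and 454 bp in KO and 254 and 246 bp in WT.

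Groups of genes by known role, which are not exclusive, were followed through the long genes. Their counts stand beside those of all long genes tested, of which 76.4% had a lower covered length in KO, and of all regions, of which 1.12% had the KO and 3.05% the WT pattern. Adhesion and guidance molecules of neurons had 46 long members with 470 regions, or 9.37 per Mb. Of these regions 4 (0.851%) had the KO and 39 (8.3%) the WT pattern. Of the 34 members with a known start, 12 had a start peak in all lists and 17 in none. Covered length was testable in 27 members, with 21 (77.8%) lower and 6 higher in KO and a median log2 difference of -0.16. Nrg1, Tenm4, Slit3, a guidance ligand, and Adgrl3, an adhesion receptor, held most regions, with 38, 38, 33 and 29.

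Nrxn3 had 6604 and 7365 bp covered in KO and 8548 and 8592 bp in WT, a log2 difference of -0.20. The values did not overlap. Cntnap2, which spans 2241 kb on chromosome 6, had 7303 and 6333 bp in KO and 6296 and 7280 bp in WT, which overlapped. Lsamp spans 2197 kb and held only 6 regions, of which 5, 6, 6 and 6 were called. Of the long genes without any region, Adgrb3, Cadm2 and Cntn4 belong to this group.

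Ion channels and transmitter receptors had 24 long members with 201 regions (10.6 per Mb), 1 (0.498%) of the KO and 10 (4.98%) of the WT pattern. Cacna1c, a calcium channel, held 55 regions, Kcnma1, a potassium channel, 21, Trpm3 17 and the calcium release channel Ryr2 16. Kcnma1 had 4746 and 4444 bp covered in KO and 7968 and 6465 bp in WT, without overlap, a log2 difference of -0.53 (SE 0.11, limma adjusted p = 0.426). Of 15 members tested, 12 (80%) were lower and 3 higher in KO, with a median of -0.19.

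Transcription regulators, with 17 long members, held 720 regions (59.8 per Mb), of which 10 (1.39%) had the KO and 24 (3.33%) the WT pattern, both near the shares over all regions. Foxp1, Zfhx3, Nfia and Rora held most, with 97, 74, 62 and 57. Of 16 tested, 11 (68.8%) were lower and 5 higher in KO, below the share over all long genes, with a median of -0.02. Nfia had 23630 and 24107 bp in KO and 24903 and 26333 bp in WT, a log2 difference of -0.01 after centring. Its start was among those called in 1 KO and 1 WT list.

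Kinases, phosphatases and second-messenger enzymes had 17 long members with 633 regions (41.4 per Mb), 5 (0.79%) of the KO and 27 (4.27%) of the WT pattern. Ptprm covered 24396 and 33973 bp in KO and 38728 and 36216 bp in WT, and Ptprg 30515 and 34712 bp against 40295 and 39260 bp. Neither overlapped, and the log2 differences were -0.29 and -0.20, or -0.07 and -0.13 without KO replicate 1. Pde4d, with 36212 and 36002 bp against 38609 and 37134 bp, had a log2 difference of 0.02 after centring. Of 16 tested, 13 (81.2%) were lower and 3 higher, with a median of -0.09.

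Junction, polarity and cytoskeleton genes had 24 long members with 812 regions (41.3 per Mb), 5 (0.616%) of the KO and 36 (4.43%) of the WT pattern. Of 21 tested, 16 (76.2%) were lower and 5 higher in KO, near the share over all long genes, with a median of -0.14. Arhgap26, Frmd4a, Magi1 and Pard3b held most regions. Arhgap26, the gene with most regions of all, covered 59360 and 59581 bp in KO and 64696 and 63411 bp in WT, a log2 difference of -0.02 after centring. Pard3b covered 16145 and 15809 bp in KO and 19235 and 18252 bp in WT, a log2 difference of -0.14.

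Genes known from common fragile sites had 21 long members with 445 regions (17.0 per Mb), 2 (0.449%) of the KO and 30 (6.74%) of the WT pattern. All 17 tested had a lower covered length in KO, with a median of -0.17, beside 76.4% of all long genes and 49.1% of the other genes tested. The count was 17 of 17 also with quantile normalisation and without centring. Wwox, an oxidoreductase, covered 20338 and 22024 bp in KO and 26022 and 24508 bp in WT. Auts2 covered 18185 and 19041 bp against 21602 and 21657 bp, and Macrod2 12762 and 11860 bp against 14935 and 15160 bp. The groups did not overlap at these 3 genes, and limma called none of the 17 (unadjusted p under 0.05 in 6, all lower in KO).

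Fhit, a diadenosine hydrolase of 1612 kb, held 16 regions, of which 9 and 12 were called in KO and 12 and 15 in WT. Ptprd, the longest gene at 2271 kb, held 27, of which 22 and 18 were called in KO and 23 and 22 in WT. Ctnna3 (1574 kb), Dlg2 (1973 kb), Lrp1b (2058 kb) and Csmd1 (1643 kb) held 13, 10, 4 and 1. The 10 longest genes thus held between 1 and 40 regions, the 40 being those of Macrod2.

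Endothelial and vascular genes had 17 long members with 956 regions (70.4 per Mb), the highest density of the 7 groups. Of these regions 15 (1.57%) had the KO and 41 (4.29%) the WT pattern. A start peak was called in all lists at 13 of the 14 members with a known start. Of 16 tested, 10 (62.5%) were lower and 6 higher in KO, with a median of -0.03. Ptprm, Ptprg, Foxp1 and St6galnac3 held most regions, and St6galnac3 covered 26074 and 29486 bp in KO and 31336 and 30236 bp in WT, a log2 difference of -0.06 after centring and 0.01 without KO replicate 1.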

How the data were processed

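Per the labels' protocols, nuclei of the sorted cells were tagmented. Reads were handled with cutadapt, Bowtie2 and Picard on mm10, as named in the submitters' processing notes, where no version is given. The caller of peaks, its settings and the read filters are not given in the sources used here. The deposited lists hold 1 library each, and per the file headers the only measurement is peak width in bp, which the authors did not normalise. No other unit was used.

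Peaks on chromosomes 1 to 19 were merged (1 bp overlap) and placed by their centre in RefSeq gene spans. Strand and starts came from the RefSeq promoter table. Regions inside 2 or more long genes (87) counted once as members and in each gene. Library values were compared by two-sided exact permutation tests, within-library differences by exact sign-flip tests, and counts were given with Wilson intervals. Covered length (log2 with 200 bp added, genes with 5 or more regions) and width were fitted with limma over all genes or regions.

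The named genes were the 10 with most regions, the 8 with most of each pattern, the 5 highest and lowest by density and by fitted difference, up to 4 per gene group and the 10 longest. Not every gene of the rule is described, and some items that it gave are not reported here. The members, gene groups and named genes were chosen with earlier results of these data known. Tested on simulated data over 3705 genes, limma recovered 47, 45 and 37 of 50 planted log2 differences of -2, -1 and -0.5 and 42 of 50 of 0.5, with 14 false calls. The simulated noise was normal, independent between genes and libraries, and of equal spread in genes of similar covered length. Real lists need not behave so, and these rates do not give the power of the real comparison. Planted call patterns in 108 long genes were recovered in 299 of 299 KO and 286 of 286 WT cases. Alternatives covered the overlap, the gap for absence, list length, peak width, span, gene ends, scaling, the replicate block and leaving out each library. Sequence and motifs of intronic regions were not analysed here. Tools were limma 3.58.1 in R 4.3.3, and scipy 1.17.1 and pandas 2.3.3 in Python 3.11.15.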

Additional observations from a re-analysis of the deposited data

How the results depend on the processing

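The direction of every library comparison (shares, numbers, covered length, density, width, calls in every list, gene ends and start peaks) was kept under each alternative that was run, though only 2 libraries per genotype were available. With equal list lengths, long genes held 69 KO-pattern and 113 WT-pattern regions (WT 62.1%, shorter genes 45.4%), and 56 and 32 genes had more of the WT or KO pattern. With only peaks at or over their list's median width there were 20 and 87 regions, 56 genes had more of the WT pattern, shorter genes stood at 70.7% and the gap between long and shorter genes at 10.6 points. With a gap of 500 bp for absence, shorter genes stood at 70.0%. A span of 300 kb gave 121 and 447 regions (78.7%) and 218 and 38 genes, and a span of 1 Mb gave 4 and 65 regions (94.2%), 31 and 1 genes and a gap of 25.6 points, as these sets hold other genes. With a library left out, the pattern of its genotype rested on a single list, so these counts are a looser measure than the main ones. Over the fits that left out a library, KO-pattern regions ranged from 76 to 258 and WT-pattern regions from 360 to 565, with a WT share of 58.3 to 86.2% in long and 39.8 to 77.8% in shorter genes, a gap of 2.89 to 18.5 points, and 8 to 42 genes with more of the KO pattern. It also gave 0 to 9 long genes called by limma, 19 to 59 with an unadjusted p under 0.05 and lower in KO, and medians of -0.15 to -0.082. Without centring, an alternative chosen after seeing the data, as was every alternative for start peaks, the long-gene median was -0.22 and that of all genes -0.09. Fitting the replicate number as a replicate block gave 15 of 161 long genes called in place of 0, beside 46 of all 3705 genes tested. Among the 15 were Alk, Ank2, Dab1, Grid1 and Kcnma1, and all 15 were lower in KO. The block left the library differences as they were, -0.411 points, -444 regions and -209.3 kb, with an exact p of 0.5. Same-numbered libraries did not deviate together (correlation -0.0855 for covered length over 3705 genes). A correlation over genes cannot show whether they share a batch, and no pairing is known beyond the number. The cause of these shifts was not tested. Widths gave 0 calls under each alternative run. Of 37 named genes with unequal patterns, the order turned in 5 with equal list lengths (Lrmda, Magi1, Pde4d, Plcb1 and St6galnac3), in 5 with wide peaks (Mast4, Pde4d, St6galnac3, Tenm4 and Zfhx3) and in 2 to 7 when a library was left out. Depth is unknown and limits every absence.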

Other observations

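The X chromosome, outside chromosomes 1 to 19, carries 11 protein-coding genes of 500 kb or more. They held 38 merged regions, of which 20 were called in all 4 lists and 0 had the KO or the WT pattern. On chromosomes 1 to 19 these patterns made up 1.12% and 3.05% of all regions and 0.899% and 4.72% of members. So few regions cannot tell 0 from these shares. The KO lists called 24 and 26 of the 38 regions and the WT lists 33 and 28, so both KO values lay below both WT values. Counts for other X-linked genes are not given here. KO replicate 2 had a peak at 0 of 5 single-copy Y genes, and the part of this in the X-linked counts was not tested. Dmd, which encodes dystrophin and spans 2390 kb, held 11 regions, of which 4 and 5 were called in KO and 9 and 7 in WT. Arhgap6, a GTPase-activating protein, held 14, of which 12 and 11 were called in KO and 13 and 11 in WT. Pcdh11x and Aff2 held 0.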
